A study of Mus musculus with 12 samples.

Results

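This account describes 1211 stretches of mouse chromatin whose share of the H3K27ac signal rose whenever etomoxir was added to 4T1 cells, a mouse mammary carcinoma line. H3K27ac is histone H3 acetylated at lysine 27, a mark of active promoters and enhancers, and it was measured by chromatin immunoprecipitation and sequencing (ChIP-seq). The 1211 intervals were selected on these same data. The deposited table holds 126464 intervals, of which 24109 had a mean scaled value of at least 50 over the 12 libraries and were kept. An interval was taken when its share of the reads of a library was higher with etomoxir than in the control library of the same suffix in 8 of 8 pairs, which held for 5.02% of the kept intervals. The share ratios themselves chose the intervals, so they are given as a description and with no test.

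Over 48 h the cells received vehicle or acetate (5 mM), etomoxir (50 µM) without or with acetate, or etomoxir plus SB204990, both at 50 µM, without or with acetate. Each of these 6 treatments had 2 libraries. The library names carry 1 of a pair of suffixes, called set 1 and set 2 here, and the labels do not say whether these are separate cultures, so that p-values measure only the spread between these libraries. All cells were wild type and of a single line, and no group received SB204990 alone or SB204990 with acetate. The 8 pairs were etomoxir against vehicle, etomoxir + SB204990 against vehicle, etomoxir + acetate against acetate, and etomoxir + SB204990 + acetate against acetate, each within set 1 and within set 2. Each vehicle and each acetate library therefore served as the control of 2 pairs. The transcription start site (TSS) of 7 of 7 epithelial marker genes, among them Epcam, Krt8 and Cdh1, lay in a kept interval, as did 0 of 3 leukocyte, 1 of 3 endothelial (Cdh5), 0 of 3 hepatocyte and 0 of 3 adipocyte markers.

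Etomoxir blocks carnitine palmitoyltransferase 1, the enzyme that lets long-chain fatty acids enter mitochondria for oxidation, and SB204990 blocks ATP citrate lyase, which makes acetyl-CoA from citrate in the cytosol. Fatty acids and their derivatives are ligands of the peroxisome proliferator-activated receptors (PPARs), nuclear receptors that bind DNA together with RXR at 2 copies of a short core sequence. PPAR target genes are known for fatty acid transport and oxidation and the coating of lipid droplets.

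The sequences below are shown because genes of fatty acid handling lead the raised intervals. Each is a window of mm10 (GRCm38) in the direction of the match, 5′ to 3′, and the capitals mark 2 copies of AGGTCA in the same direction with 1 base between them, or the same with 1 substitution. A substitution is written as the base of the repeat, its position counted from 1 at the 5′ end of the match, and the base found. The first lies in the Cpt1a interval (chr19:3341983-3342043, plus strand), the second in a neighbouring Cpt1a interval (chr19:3351905-3351965, minus strand), the third in an interval assigned to Asb4 beside Pdk4 (chr6:5452288-5452348, plus strand) and the fourth in the Ucp2 interval (chr7:100498375-100498435, minus strand). The next 4 hold 1 substitution each, A1G in Cpt1a (chr19:3341456-3341516), T11C in Ucp3 (chr7:100463265-100463325), T11A upstream of Hilpda (chr6:29250205-29250265) and T11A in the interval over the Angptl4 TSS (chr17:33775751-33775811), all on the plus strand. None of the 8 windows overlapped an untranslated region of GENCODE M21.
Cpt1a: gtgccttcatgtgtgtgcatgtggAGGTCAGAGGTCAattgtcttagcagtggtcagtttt
Cpt1a neighbour: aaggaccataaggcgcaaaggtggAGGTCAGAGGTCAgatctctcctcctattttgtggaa
Asb4: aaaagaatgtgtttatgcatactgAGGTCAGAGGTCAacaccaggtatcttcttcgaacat
Ucp2: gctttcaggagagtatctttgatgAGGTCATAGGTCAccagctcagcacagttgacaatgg
Cpt1a A1G: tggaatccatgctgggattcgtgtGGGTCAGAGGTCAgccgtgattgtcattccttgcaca
Ucp3 T11C: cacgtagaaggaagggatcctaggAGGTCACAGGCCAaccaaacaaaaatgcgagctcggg
Hilpda T11A: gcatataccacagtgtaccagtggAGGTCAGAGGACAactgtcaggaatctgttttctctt
Angptl4 T11A: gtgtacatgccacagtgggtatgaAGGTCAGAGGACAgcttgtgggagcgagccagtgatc

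Such a match was not particular to the raised intervals. An exact repeat was found in 34 of 1211 raised intervals (2.81%) and in 2.55% of kept intervals of the same length class. With up to 1 mismatch the shares were 19.8% and 18.2%. Among the 91 intervals that rose at least 1.25-fold in every pair, 17 held a match with up to 1 mismatch (18.7%, against 18.7% at the same lengths). The Pdk4 interval, which had the largest smallest ratio, held none. A match is a run of letters and not a bound site.

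The promoter sequences of Pdk4, Fbp2 and Ucp3 are shown since the TSS of each lay in a raised interval. They are the RefSeq bases upstream of the start in GRCm38.p6, 5′ to 3′, without bases that GENCODE places in an untranslated region. For Pdk4 (chr6:5496310-5496528, minus strand) 219 bases remained, and none of the motifs searched was found. For Fbp2 (chr13:62858423-62858650, minus strand) 228 bases remained, and the capitals mark the AP-1 motif TGANTCA, which reads the same on both strands. In the 250 bases of Ucp3 (chr7:100472741-100472990, plus strand) the capitals mark AGGTCA.
Pdk4 promoter: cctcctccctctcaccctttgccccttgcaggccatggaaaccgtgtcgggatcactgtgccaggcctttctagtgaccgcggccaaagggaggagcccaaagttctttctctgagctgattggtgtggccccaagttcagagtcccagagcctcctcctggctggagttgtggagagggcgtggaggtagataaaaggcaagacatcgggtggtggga
Fbp2 promoter: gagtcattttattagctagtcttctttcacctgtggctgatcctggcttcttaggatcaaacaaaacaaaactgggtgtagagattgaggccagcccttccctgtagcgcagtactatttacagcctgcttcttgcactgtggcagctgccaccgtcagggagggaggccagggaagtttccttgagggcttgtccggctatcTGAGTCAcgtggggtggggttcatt
Ucp3 promoter: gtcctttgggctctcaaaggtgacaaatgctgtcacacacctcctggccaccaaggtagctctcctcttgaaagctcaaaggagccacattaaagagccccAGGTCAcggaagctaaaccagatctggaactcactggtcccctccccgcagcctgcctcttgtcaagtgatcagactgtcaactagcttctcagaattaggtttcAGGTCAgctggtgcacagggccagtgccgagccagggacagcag

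Most of the raised intervals changed little and a short tail changed a lot. The smallest of the 8 ratios had a median of 0.06 on the log2 scale over the 1211 intervals, with quartiles of 0.02 and 0.13 and a highest value of 1.66. The mean of the 8 log2 ratios had a median of 0.26 and ran from 0.04 to 1.93. At least 1.1-fold in every pair was reached by 286 intervals, 1.25-fold by 91, 1.5-fold by 39, 2-fold by 9 and 3-fold by 1.

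The fall was of a different shape. By the mirror of the rule, 1360 kept intervals had a lower share in 8 of 8 pairs, and 12 of them passed 1.25-fold in every pair and 0 passed 1.5-fold. These numbers depended on the scaling, with 382 raised and 1290 lowered by median-of-ratios scaling and 476 raised and 17 lowered on spike-scaled values. At 1.1-fold the counts were 286 and 222, and the plot of the smallest change shows the curves moving apart beyond that. In 430 raised intervals (1.78% of the kept intervals) the 8 libraries with etomoxir all lay above the 4 without it, and in 426 kept intervals they all lay below.

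**Figure D1:**
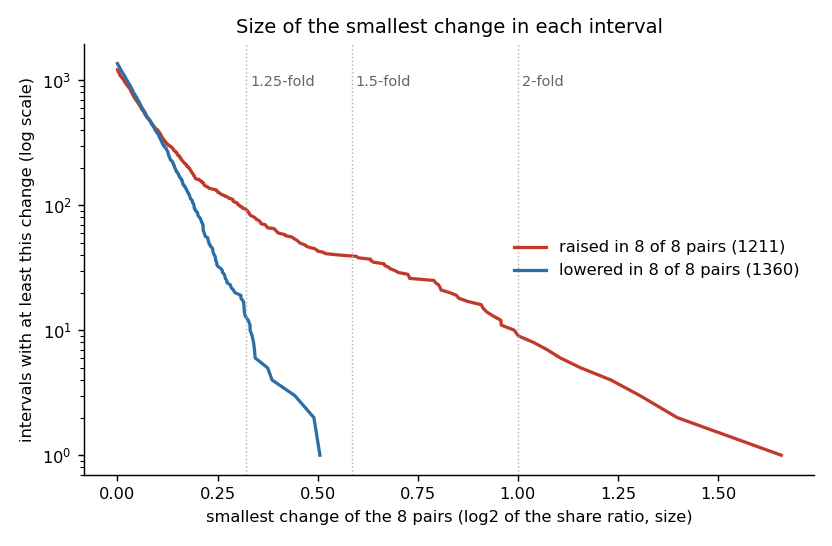
Number of intervals (log scale) whose smallest change over the 8 pairs was at least the value on the x axis (size of the log2 share ratio), for intervals raised (red, 1211) and lowered (blue, 1360) in 8 of 8 pairs. At 1.25-fold 91 raised and 12 lowered intervals remain, and at 1.5-fold 39 and 0.

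Counting error alone was wide for many of these ratios. The 95% interval of the ratio from the read counts lay above 1 in 8 of 8 pairs for 126 of the 1211 intervals, in at least 4 pairs for 573 and in 0 pairs for 78. These intervals cover counting error only. The last intervals taken show how fine the edge was. The lowest ratios inside belonged to intervals assigned to Bco1, Il7r and Cd83 and the nearest outside, with 7 of 8 pairs above 1, to Ipp, E130202H07Rik and Cbx3, and the smallest ratio of all 6 was 1.00 after rounding. The 3 inside had mean ratios of 1.15, 1.36 and 1.15 and the 3 outside 1.09, 1.11 and 1.26.

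Both sets enter the rule, so the values of each set are given as a description, and whether the sets are separate cultures is not known. The 4 pairs of set 1 alone gave 5162 intervals (21.4% of those kept), and 23.5% of these also passed the 4 pairs of set 2, which 11.5% of all kept intervals did. The intervals that passed both are by construction the 1211 raised ones. The 4 pairs of set 2 alone gave 2774 intervals, of which 43.7% passed set 1, against 21.4% of all kept intervals.

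The share that passed both was higher among the intervals ranked first in one set. Of the 20 with the largest smallest ratio in set 1, 20 passed set 2, with a median log2 ratio there of 1.16, and in the reverse direction 20 of 20 passed with a median of 1.31. Of the first 100, 90 and 93 passed. Of the first 500, 237 and 333 did, with medians of 0.20 and 0.28.

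The first interval lay over Pdk4, which encodes pyruvate dehydrogenase kinase 4, the brake on glucose carbon entering the citric acid cycle. It spans chr6:5495394-5519590 and holds the TSS. In reads per 1000000 reads in intervals (RPM), it measured 36.2 in set 1 and 38.7 in set 2 with vehicle, 39.7 and 39.3 with acetate, 140.1 and 153 with etomoxir, 125.3 and 134 with etomoxir + acetate, 175 and 152 with etomoxir + SB204990, and 152 and 149 with etomoxir + SB204990 + acetate. The 8 etomoxir libraries lay far above the 4 others, and the 8 ratios ran from 3.16 to 4.83.

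Other raised intervals lay beside Pdk4. Over 217244 bp (chr6:5409686-5626929) 6 of 6 kept intervals were raised, 4 assigned to Pdk4 and 2 to Asb4, a gene of the ubiquitin ligase machinery, and the median of their mean log2 ratios was 1.104. Intervals upstream of Pdk4 at chr6:5550181-5558744 and chr6:5580934-5592335 rose 2.16- and 2.21-fold on average over the pairs, and the Asb4 interval at chr6:5409686-5418550 rose 2.14-fold.

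Genes for acyl-CoA thioesterases, which release free fatty acids from CoA inside mitochondria or the cytosol, held the second interval. The stretch at chr12:83996578-84001260, downstream of Acot2 and 8230 bp from the nearest TSS of a protein-coding gene (Acot1), measured 3.77 and 4.95 RPM with vehicle, 3.78 and 4.66 with acetate, 12.3 and 13.1 with etomoxir, 13.8 and 14.1 with etomoxir + acetate, 17.0 and 15.0 with etomoxir + SB204990, and 20.0 and 16.3 with etomoxir + SB204990 + acetate. All etomoxir libraries were above all others, by 2.64- to 5.28-fold in the pairs. The interval over the Acot2 TSS (chr12:83985118-83990825) rose 1.81-fold on average and one near Acot1 2.35-fold. Acot1 and Acot2 are closely related in sequence, and whether reads were shared between them cannot be told from the table.

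Fbp2, the muscle form of fructose bisphosphatase, was the first interval annotated at a promoter (chr13:62856386-62860871). It measured 4.25 and 4.75 with vehicle, 5.28 and 5.35 with acetate, 11.6 and 10.9 with etomoxir, 12.2 and 12.1 with etomoxir + acetate, 16.4 and 10.6 with etomoxir + SB204990, and 16.7 and 16.4 with etomoxir + SB204990 + acetate, again without overlap. The 2 libraries of etomoxir + SB204990 lay further apart than those of the other treatments, and the smallest ratio, 2.23, came from that group in set 2.

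Uncoupling proteins of the inner mitochondrial membrane were represented by Ucp3, whose interval at chr7:100458900-100469983 was annotated at a promoter though its nearest GENCODE TSS lay 3008 bp away. It rose from 17.7 and 20.8 RPM with vehicle and 22.2 and 21.5 with acetate to between 41.7 and 59.1 in the 8 etomoxir libraries. The Ucp2 interval was raised by 1.14-fold on average.

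Genes of lipid storage and lipase control followed. Hilpda encodes a small lipid droplet protein that inhibits triglyceride breakdown, and its upstream interval (chr6:29241093-29251303) measured 22.6 to 29.7 RPM in the 4 libraries without etomoxir and 53.8 to 82.1 in the 8 with it. Angptl4 encodes a secreted inhibitor of lipoprotein lipase. Its TSS lay in an interval that the table assigns to 4931413I07Rik (chr17:33774033-33792193), which measured 74.7 to 86.3 without etomoxir and 153 to 215 with it.

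The gene of the target of etomoxir itself was among the raised intervals. The Cpt1a interval over the TSS (chr19:3320685-3347179), chosen after its values were seen, measured 86.4 and 98.5 RPM with vehicle, 98.2 and 104 with acetate, 158 and 168 with etomoxir, 152 and 152 with etomoxir + acetate, 188 and 163 with etomoxir + SB204990, and 178 and 186 with etomoxir + SB204990 + acetate. The groups did not overlap, and the mean ratio was 1.74. Cpt2, the inner-membrane partner of the carnitine shuttle, had a mean ratio of 1.67, with 12.7 to 13.9 RPM without etomoxir and 19.0 to 25.3 with it.

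**Figure D2:**
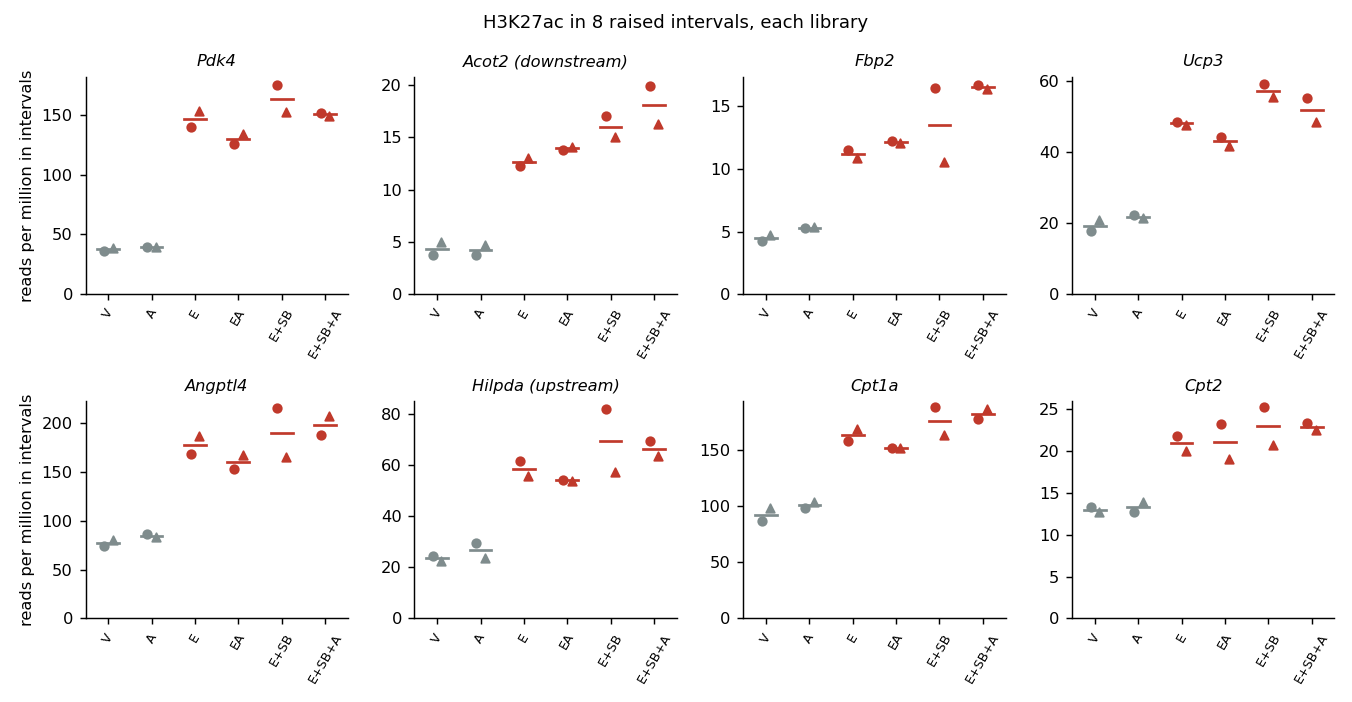
H3K27ac in 8 raised intervals (RPM) in each library: circles are set 1, triangles set 2, lines the mean of both. V is vehicle, A acetate, E etomoxir and SB SB204990, grey without and red with etomoxir. In each panel the 8 etomoxir libraries lie above the 4 others, from 3.82-fold on average for Pdk4 to 1.67-fold for Cpt2.

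The other leading intervals were on none of the gene lists. An intronic interval of the long non-coding RNA gene 9330188P03Rik (chr14:105612762-105618499), 278320 bp from the nearest protein-coding TSS (Spry2), rose from between 6.66 and 8.08 to between 17.5 and 22.4 RPM. Intervals assigned to Tie1, an endothelial receptor kinase, Lrrc6, a cilia assembly factor, and Prtg, a cell surface protein of the immunoglobulin family, rose 2.56-, 2.62- and 2.28-fold on average.

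Most of these lay far from a start site. Among the first 20 were also Cfap53 (2.60-fold on average), Msl3l2 (2.15), Gm12480 (2.20), Ppef1 (2.76), Pate12 (2.43) and Mgat4c (2.16). Of the 20, 3 held a TSS of a protein-coding gene, namely Pdk4, Fbp2 and Angptl4. The Msl3l2 interval was 869406 bp from that gene.

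**Figure D3:**
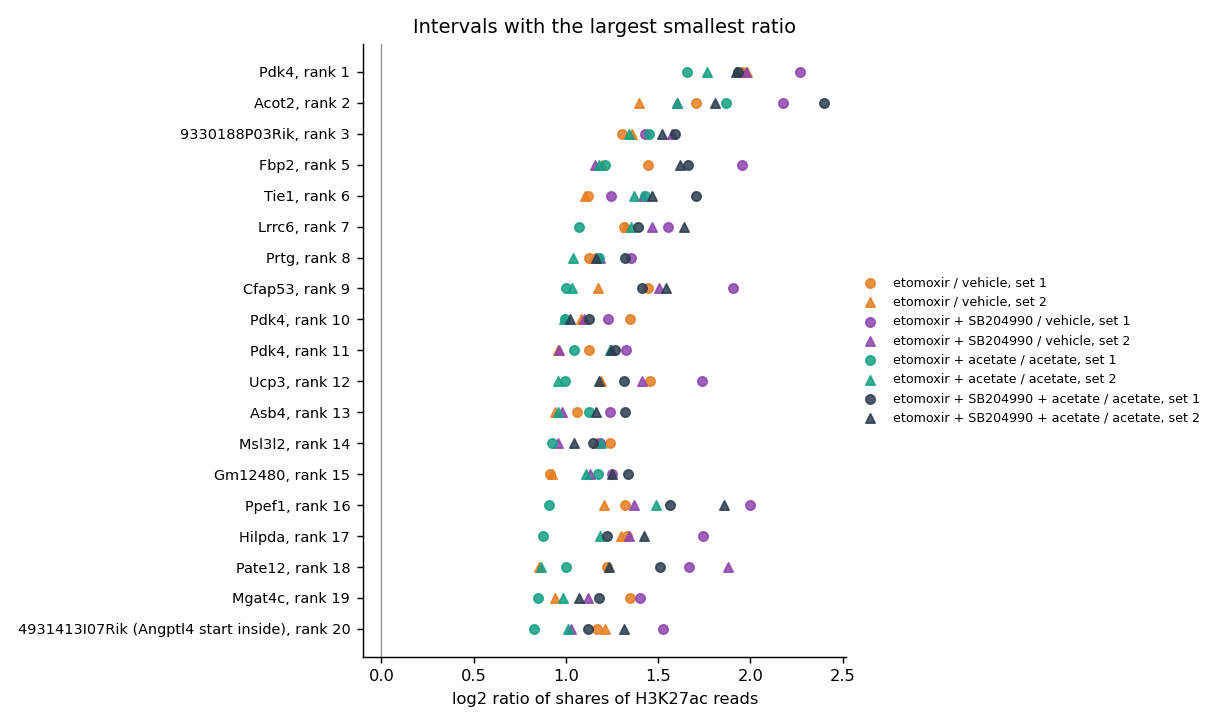
The 8 log2 share ratios (x axis) of 19 of the 20 intervals with the largest smallest ratio, named by the gene the table assigns. Colours are treatments and controls, circles set 1, triangles set 2. All 152 points lie above 0, the lowest at 0.83 for the interval with the Angptl4 TSS and the highest at 2.40 for Acot2.

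The gene lists show how far the metabolic genes stood out. Of 88 kept intervals assigned to 44 genes of PPAR targets and fatty acid oxidation, 32 were raised (36.4%, against 5.02% of all kept intervals) and 2 were lowered, and 15 of the 32 passed 1.25-fold in every pair. The lists were chosen with earlier results of these data known, so these counts describe and do not test. By the TSS inside the interval in place of the assigned name, 19 of 47 were raised (40.4%), as were 243 of all 9486 kept intervals with a protein-coding TSS inside.

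By role, the carnitine shuttle was raised at Cpt1a (3 of 4 kept intervals), Cpt2 (1 of 1) and the acylcarnitine carrier Slc25a20 (1 of 1). The chain-shortening enzymes were raised in part. Acadl, the long-chain acyl-CoA dehydrogenase, had 2 of 4 raised, Hadh 1 of 1 and Acaa2, the mitochondrial thiolase, 1 of 2. Acadm, Acads, Hadha and Hadhb had 0 of 1 each. Acadvl had 1 of 2 raised, over its own TSS, and the other, over the Dlg4 TSS, was lowered. The electron acceptors of that pathway, Etfa and Etfb, had 2 of 4 and 1 of 1.

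Lipid droplet genes differed among themselves. Hilpda had 3 of 3 raised and Plin2, which coats droplets, 1 of 2, whereas Plin4 and G0s2 had 0 of 1 each. Oxct1, an enzyme that uses ketone bodies, had 0 raised and 1 lowered of 2. Of the peroxisomal genes, Acaa1a had 0 of 1 raised and Cat 0 of 5.

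The receptors and partners were not among the raised intervals. Rxra had 0 of 8, Ppargc1a 0 of 3, and Ppard 0 of 1. The single kept interval of Pparg missed the rule by 1 pair, with a smallest log2 ratio of -0.02 and a mean of 0.33.

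The remaining 6 lists lay near the background. They gave 1 of 28 for cholesterol synthesis and uptake (3.57%), 2 of 25 for fatty acid synthesis (8.0%), 2 of 32 for the integrated stress response (6.25%), 3 of 36 for the NRF2 antioxidant response (8.33%), 2 of 32 for glycolysis and hypoxia (6.25%) and 2 of 32 for EMT and matrix (6.25%), and 0 of these 12 passed 1.25-fold in every pair. The means of the 8 log2 ratios were 0.41 for Sc5d, 0.34 and 0.83 for Scd1, 0.21 for Psph, 0.29 for Psat1, 0.22 for Cbr3, 0.21 for Nqo1, 0.07 for Pgd, 0.23 and 0.22 for Ndrg1, 0.42 for Twist1 and 0.29 for Tgfbi. On the EMT list 10 of the 32 intervals were lowered, as were 1360 of all 24109 kept intervals.

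**Figure D4:**
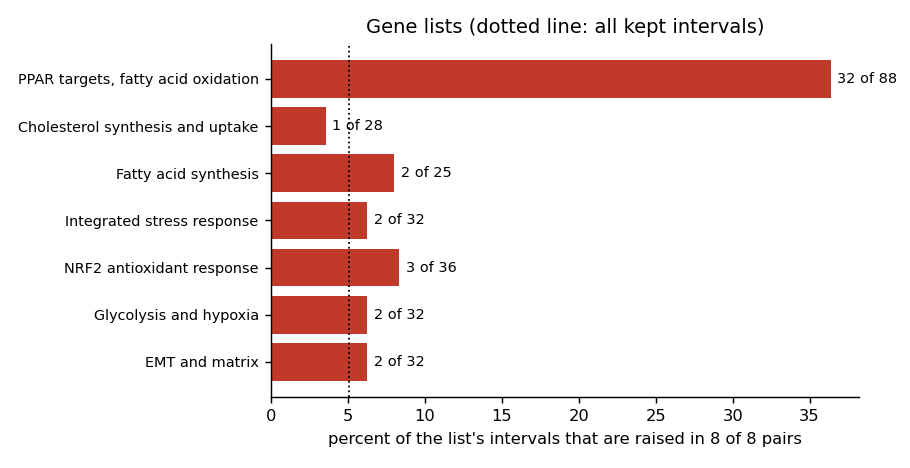
Percent of kept intervals assigned to each gene list that were raised in 8 of 8 pairs, with counts beside the bars. The dotted line is the share of all kept intervals, 5.02%. The list of PPAR targets and fatty acid oxidation reaches 36.4% and the others lie between 3.57% and 8.33%.

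The raised intervals bore 1014 gene names, and 146 genes had at least 2. Joined over gaps of up to 100 kb they formed 930 loci, 184 of which held 2 or more and 465 intervals in all. A locus begins and ends with a raised interval by construction, so its counts leave out kept intervals just outside it. Another raised interval lay within 100 kb of 38.4% of them, against 16.2% of the other kept intervals. The locus with the most raised intervals, around St3gal5, a ganglioside synthase, and Atoh8 (chr6:71985227-72247542), held 9 raised of 10 kept intervals, with a largest smallest log2 ratio of 0.22.

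In some other loci each kept interval between the ends was raised. All 5 of 5 kept intervals rose at Nfkbiz, a nuclear regulator of NF-κB target genes (chr16:55603768-55772169), 5 of 5 at Dnah6, an axonemal dynein, 5 of 5 at 5330413D20Rik, and 5 of 5 at Mppe1 and Impa2. At 9330188P03Rik and its neighbours 6 of 7 rose. So did 6 of 7 around Myom1, Lpin2 and Emilin2, and 5 of 7 at Gramd3. These loci were chosen after their values were seen, by the number of raised intervals they held.

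As a class the raised intervals lay away from promoters, as the lowered ones did. By the authors' annotation 51.2% were intronic, 33.0% intergenic, 6.03% at promoters, 5.53% at transcription ends and 4.21% in exons, against 49.6%, 24.6%, 13.9%, 5.51% and 6.42% of all kept intervals. A protein-coding TSS lay inside 20.1% of them, against 39.3% of kept intervals and 25.5% of lowered ones. The median distance to the nearest protein-coding TSS was 21678 bp, against 7872 bp for kept and 22147 bp for lowered intervals. Of the lowered intervals 43.6% were intergenic and 8.90% at promoters.

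Among the raised intervals annotated at a promoter, the change was mostly small. This annotation leaves out some intervals that held a TSS. Of these, the mean log2 ratio was 1.93 for Pdk4 (annotated intergenic), 0.86 for Acot2 (exon), 0.80 for Cpt1a (intron) and 0.74 for Cpt2 (intron). After Fbp2 and Ucp3, the strongest of the 73 intervals annotated at promoters were those of Gm49016 over the Vwa8 TSS (1.47-fold on average), Akip1, a protein kinase A partner (1.5), and Aldh9a1, an aldehyde dehydrogenase of carnitine synthesis (1.5). Over the Aldh9a1 TSS the share went from 13.4 to 17.5 RPM without etomoxir to 20.7 to 26.9 with it.

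Base composition went with the rule. The median GC content was 44.7% in raised, 46.4% in all kept and 45.4% in lowered intervals. In 5 equal bins of kept intervals from the lowest to the highest GC content, 7.99%, 6.48%, 4.86%, 3.86% and 1.95% were raised, and 7.76%, 6.31%, 4.59%, 4.80% and 4.77% were lowered, so that the lowest bins held the most of both. The order was the same among intervals outside promoters, from 8.18% to 2.12%.

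The libraries themselves leaned with GC content, and not alike. In the lowest bin the median log2 ratio of all kept intervals was 0.07 for etomoxir and 0.07 for etomoxir + acetate in set 2, and in the highest -0.08 and -0.05. In set 1 the corresponding values were 0.01 and -0.00 against 0.01 and 0.02, and for etomoxir + SB204990 in set 1 the order was the opposite, from -0.06 to 0.02. These leanings are of the size of the smallest ratios in most raised intervals, and their part in the result was not tested.

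**Figure D5:**
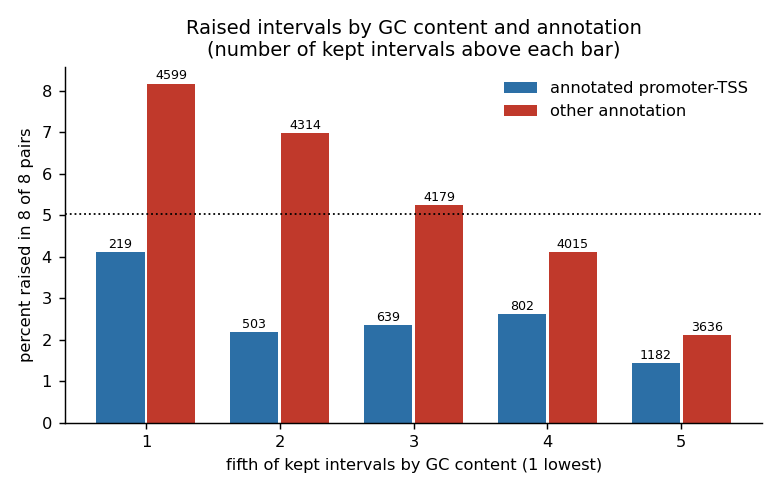
Percent of kept intervals raised in 8 of 8 pairs in each of 5 equal bins by GC content (1 lowest), for intervals annotated at promoters (blue) and elsewhere (red), with the number of kept intervals above each bar. The dotted line is 5.02%. Outside promoters the share falls from 8.18% to 2.12%.

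The raised share varied less with length and level, from 4.02% to 5.99% over 5 equal bins of length and from 4.31% to 5.91% over 5 of level, while the lowered share rose with level from 2.07% to 11.01%. The libraries leaned with level too, with a median log2 ratio of all kept intervals from 0.17 in the lowest bin to -0.08 in the highest for etomoxir + acetate in set 1 and from 0.17 to -0.14 for etomoxir + SB204990 in set 2, and the part of this in the result was not tested. Raised intervals had a median length of 6138 bp (1695 to 109805 bp) against 5525 bp for all kept intervals, and a median scaled value of 154 against 156. The longest and strongest were broad domains. Over all raised intervals the median of the mean log2 ratios was 0.26, and the broad Plin2 interval (45289 bp) had a mean log2 ratio of 0.38. An interval of 109805 bp over the Asap1 TSS, which the table assigns to 1700010G06Rik, had a mean ratio of 1.03, one of 90486 bp at Lrrc8d, assigned to Lrrc8dos, had 1.12, and the domain over Il1a, a cytokine gene, had 1.17.

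Of the other motifs searched on both strands, AP-1 (TGANTCA) was found in 92.2% of raised intervals and in 86.5% of kept intervals of the same length class. There were 90.3 matches per 100 kb in raised and 74.4 in all kept intervals. The shares for raised intervals and for kept ones of the same length were 61.3% and 60.2% for FOXO (GTAAACA), 17.3% and 20.2% for ERR (TCAAGGTCA), 5.37% and 4.86% for ATF4-CEBP (TGATGCAAT), 85.8% and 86.4% for the antioxidant response element (TGACNNNGC) and 22.2% and 24.1% for SREBP (TCACNCCAC). The ERR motif contains the core sequence AGGTCA. The lower GC content of the raised intervals moves with these shares, and its part was not tested.

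The rule did not choose on the acetate, SB204990 and interaction effects, which were fitted with limma over 63903 intervals. They come from the same 12 libraries, and the SB204990 and interaction effects are differences between the ratios that the rule required to be above 1, so their values in the raised intervals are not independent of the choice. Averaged over vehicle, etomoxir and etomoxir + SB204990, the acetate effect on the share was called in 5 of 1211 raised intervals, 2 higher and 3 lower (Benjamini-Hochberg adjusted p under 0.05), where 0.0782% of all tested intervals were called higher and 0.0125% lower. Without adjustment 232 raised intervals and 5504 of all 63903 tested ones passed 0.05. The median acetate effect over the raised intervals was -0.01 on the log2 scale, against 0.01 over all kept intervals.

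The 5 calls, chosen after their values were seen, were not the intervals with large etomoxir ratios. The Atoh8 interval (chr6:72240515-72247542), near the gene of a helix-loop-helix transcription factor, was higher with acetate by 0.49 ± 0.07 (SE, adjusted p = 0.0123 by limma). It measured 14.0 and 15.0 RPM with vehicle against 19.9 and 21.4 with acetate, and 16.47 and 16.04 with etomoxir against 20.9 and 22.7 with etomoxir + acetate. Gm49985 was higher by 0.34 ± 0.05 (adjusted p = 0.00903 by limma).

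Lower with acetate were the intervals assigned to Gm29254 (-0.36 ± 0.06), Gm12519 (-0.45 ± 0.08) and Gm12600 (-0.34 ± 0.06), with adjusted p of 0.0303, 0.0366 and 0.0428 by limma. These calls rested on the libraries chosen. Leaving out 1 library gave 73 calls without etomoxir + SB204990 of set 2, where 1289 of all 63903 tested intervals were called higher and 878 lower, and 27 without etomoxir + SB204990 of set 1, where 332 and 199 were. There were 2 or 3 calls without either vehicle library or the acetate library of set 2, and 0 without any of the other 7. On the spike-scaled values the median acetate effect over all tested intervals was 0.64 on the log2 scale and 49311 of the 63903 were called higher, 1188 of the raised ones among them. The direction at the 3 lower ones turned there, to 0.27 for Gm29254, 0.17 for Gm12519 and 0.28 for Gm12600, with adjusted p of 0.0187, 0.239 and 0.0202 by limma, all below that median.

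No difference in the response with and without acetate was called. The etomoxir by acetate interaction was called in 0 of 1211 raised intervals and in 0% of all tested intervals by limma, and by edgeR in 0 of either. Under an unadjusted 0.05 were 4 raised and 856 of all tested intervals by limma, and 4 raised and 217 of all when only the 24109 kept intervals were fitted. For Pdk4 the interaction was -0.26 ± 0.13 (SE, adjusted p = 1.00 by limma) and for Ucp3 -0.34 ± 0.15 (adjusted p = 1.00 by limma). The median over the 91 intervals past 1.25-fold was -0.06, against 0.01 over all kept intervals.

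SB204990 on top of etomoxir was called in 0 raised intervals and in 0% of all tested ones by limma, and in 0 by edgeR, with 136 raised and 2639 of all tested intervals under an unadjusted 0.05 by edgeR. By limma 117 raised intervals, 106 of them higher, and 2550 of all tested ones were under it. When only the 24109 kept intervals were fitted, 126 raised and 1514 of all were. Over the 91 past 1.25-fold the median SB204990 effect was 0.14 on the log2 scale, with 81 above 0, against -0.02 over all kept intervals.

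The median log2 ratios of the libraries with SB204990 to those without, over the 91, were 0.21 in set 1 and 0.07 in set 2 without acetate, and 0.16 and 0.12 with it. These 91 were chosen on ratios that share the same libraries. For Pdk4 the effect was 0.19 ± 0.06 (SE, adjusted p = 1.00 by limma) and for Cfap53 0.43 ± 0.09 (adjusted p = 0.847 by limma). Leaving out the etomoxir + SB204990 library of set 1 gave 8 calls in raised intervals, all higher, where 571 of all 63903 tested intervals were called higher and 93 lower, and leaving out that of set 2 gave 1, where 6 and 12 were. On the spike-scaled values the median effect was -0.41 over all tested intervals and -0.35 over the raised ones, with 12285 and 288 called lower.

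The average etomoxir effect, which the rule used, was called higher in 246 of the 1211 raised intervals by limma, where 0.441% of all tested intervals were called higher, and nothing is read from it.

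Facts of the libraries bear on these values. They held 7179165 to 16676442 reads in intervals, the fewest in the etomoxir + SB204990 library of set 2, which had 81.8% of its reads in kept intervals against 85.9% to 89.6% in the others, and 2.77% in the weakest 25% of intervals against 0.99% to 1.41%. The raised intervals took 3.17% to 3.22% of the reads of the 4 libraries without etomoxir and 3.71% to 3.94% with it. A share shows change relative to the other intervals of the library and not the amount of acetylation. On the spike-scaled values, whose median ratio over kept intervals ran from -0.35 to 0.45 among the 8 pairs on the log2 scale, 372 of the 1211 kept a ratio above 1 in 8 of 8 pairs, and with median-of-ratios scaling 295 did.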

How the data were processed

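H3K27ac ChIP-seq of 4T1 cells was analysed in 12 libraries, 2 for each of 6 treatments. Human chromatin (7.5%) had been added as a spike-in. The authors aligned reads with nf-core/chipseq to GRCh38 and mm10 joined as 1 reference, called and annotated intervals, and derived a factor per library from the human reads. The submitters' processing notes also name deepTools, without a version. The deposited signal values are reads per interval times that factor. In 10 libraries 100% of values were whole multiples of the factor (tolerance 0.01 reads), and in 2 libraries the deposited values are counts, since the factor is 1. Whether an input library was used is not given in the sources used here.

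Each value was divided by the sum of its library over 126464 intervals and given per 1000000 (RPM), which removes depth and factor alike. Pairs were formed within a suffix. The rule, the members and the 7 gene lists were chosen with earlier results of these data known. Named intervals were the 20 with the largest smallest ratio, up to 4 per list, 5 at promoters, the 3 strongest, the 3 longest, and 3 on either side of the edge. A few results that this rule names are not reported here. Others are named as chosen after their values were seen.

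Acetate, SB204990 and interaction effects, which the rule did not choose on but which come from the same libraries, were tested with limma (3.58.1, R 4.3.3), with an intensity trend, on log2(RPM + 0.1) in 1 fit of 6 group means over the 63903 intervals whose mean reached 10, with a threshold of 0.05 on the Benjamini-Hochberg adjusted p. The script was tested on simulated data. edgeR (4.0.16) on recovered reads, other scalings, filters and pseudocounts, a replicate block and leaving out each library were alternatives. GC content, motifs and sites come from GRCm38, the build of the table: 0 of 126359 intervals on main chromosomes passed a chromosome end. Start sites are those of protein-coding transcripts in GENCODE M21.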

Additional observations from a re-analysis of the deposited data

How the results depend on the processing

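The 1211 raised intervals became 2398 when a mean of 10 was enough, 382 with median-of-ratios scaling, 476 on spike-scaled values, and 1327 to 2242 when 1 library was left out, the most without the vehicle library of set 2 (2242) and the acetate library of set 2 (2011). The share of set 1 intervals seen in set 2 was 14.6% at a minimum mean of 10, against 10.3% of all intervals, and 17.2% to 43.4% without 1 library. It was 43.4% against 34.0% without the vehicle library of set 2, 39.0% against 24.7% without the acetate library of set 2, and 27.3% against 23.3% without the etomoxir + SB204990 library of set 2. The list of PPAR targets and fatty acid oxidation held 51 raised intervals of 211 at a mean of 10 or more (24.2%, against 3.75% of all), 21 of 88 with median-of-ratios scaling (23.9%, against 1.58%) and 19 of 47 by start site inside. Leaving out 1 library gave 32 to 37, and could only keep or add intervals. Repeat matches with up to 1 mismatch were in 19.8% of raised intervals, against 18.2% at the same lengths. An exact repeat was in 0.150% of the promoter windows of 667 of their genes, against 0.0481% of those of 27025 genes. With up to 1 mismatch these were 0.300% against 0.644%. The shares among the 667 stand for very few windows. Acetate calls among raised intervals were 1188 on spike-scaled values (49311 of all tested intervals higher and 1 lower), 0 with median-of-ratios scaling (0 of all), 15 at a minimum mean of 50 (133 higher and 43 lower of all), 2 with no filter (22 higher and 0 lower of all), 0 with no trend (0 of all), 11 by edgeR (78 higher and 27 lower of all), and 0 to 73 without 1 library. On spike-scaled values, where the median of all intervals was 0.64, the effects at Gm29254, Gm12519 and Gm12600 were 0.27, 0.17 and 0.28. SB204990 calls were 288 on spike-scaled values, where 12285 of all were lower, and 0 to 8 without 1 library, and the interaction had 0 in every alternative run. Etomoxir calls, all higher, were 129 on spike-scaled values (147 higher of all), 53 with median-of-ratios scaling (73 of all), 44 with no trend (50 of all), and 130 to 473 without 1 library (140 to 770 of all). The causes were not tested.

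The rule compared libraries within a suffix. In the main fits the set numbers were not taken to pair the libraries, since the labels do not say so and the correlations were not all over 0.1. The correlations of same-set deviations over 15 pairs of treatments ran from -0.33 to 0.60, and 6 were over 0.1. With the replicate block 13 acetate calls were made (106 higher and 33 lower of all), 301 etomoxir calls (348 and 373 of all), and 0 for SB204990 and the interaction. Having 2 libraries a group and few reads in weak intervals limit small ratios.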
